A study of Mus musculus with 4 samples.

Results

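The receptor genes of the IL-1 and IL-18 systems, Il1r1, Il1r2, Il1rl1, Il1rl2, Il18r1, Il18rap and Il1rap, and Il1rn, the gene of the IL-1 receptor antagonist, were examined for Runx3 binding in splenic CD4+ DC. A ChIP-seq peak, a stretch of genome enriched in the immunoprecipitate, was assigned to a gene when its centre lay inside the gene body or no more than 50 kb from it in GENCODE M1. Of the 15121 peaks in the list, 20 met this rule for at least 1 of the 8 genes. Each of the 8 genes had at least 1 peak, where 62.6% of all 22367 protein-coding genes did.

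The receptors of the IL-1 family share an extracellular part built of immunoglobulin-like folds and, in most members, a cytoplasmic TIR domain. A ligand binds its own receptor chain, an accessory chain then joins, and the paired TIR domains recruit MyD88 and IRAK kinases to activate NF-kB and MAP kinases. Il1r1 encodes the signalling receptor for IL-1 and Il1r2 a decoy that binds IL-1 without signalling. Il1rl1 encodes ST2, the receptor for IL-33, Il1rl2 the receptor for IL-36, and Il18r1 and Il18rap the 2 chains of the IL-18 receptor. Il1rap encodes the accessory chain used by the IL-1, IL-33 and IL-36 receptors, and the Il1rn product occupies the IL-1 receptor without activating it. Runx3 is a transcription factor of the RUNX family, whose members bind DNA at sites with the core TGTGGT or TGCGGT.

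The data came from 2 Runx3 immunoprecipitations and 2 whole cell extract (input) controls of CD11chiMHCII+CD4+ splenic DC. The cells were sorted from DC enriched for CD11c, pooled from about 15 mice, with no genetic change or treatment named. The strain was given as C57BL/6 for both immunoprecipitates and 1 input control, and as C57BL/7 on the label of input control 2. The antibody was a polyclonal made in the authors' laboratory. Chromatin was crosslinked in 1% formaldehyde and sheared to about 300 bp, and reads were 50 bp long. The deposited list gives 1 set of peaks for the pooled samples, each with a MACS2 score called against input, in a unit not stated. It holds no value per replicate, so the spread between the biological replicates and the reads behind each peak were not analysed here, and no comparison below has a test. The absence of a peak means that none was called at the depth of these libraries. A peak list carries no RNA levels, so neither the cell type label nor the expression of the receptors could be checked. Of 6 marker genes of conventional DC, 5 had a peak in the gene body, against 0 of 2 T cell, 1 of 2 B cell and 0 of 2 erythroid markers and 23.2% of all protein-coding genes, a share at which 0 or 1 of 2 says little. Within 50 kb, a peak was found at 6 of 6 conventional DC, 2 of 2 T cell, 2 of 2 B cell and 1 of 2 erythroid markers. The share over all protein-coding genes was 62.6%, at which counts out of 2 again say little. The highest score at the T and B cell markers was 99.56, at the neighbouring genes Cd3e and Cd3g.

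The sequence of 7 peaks is shown because these hold the 5 highest scores at the receptor genes, the highest score at Il1rap and a tandem pair of RUNX cores. Each line gives the central 300 bases, read 5′ to 3′ on the plus strand, which is the coding strand of the 8 genes, with mm9 positions. Capitals mark TGTGGT or TGCGGT or their reverse complements ACCACA or ACCGCA.
Il1r2 far upstream, chr1:40121415-40121714: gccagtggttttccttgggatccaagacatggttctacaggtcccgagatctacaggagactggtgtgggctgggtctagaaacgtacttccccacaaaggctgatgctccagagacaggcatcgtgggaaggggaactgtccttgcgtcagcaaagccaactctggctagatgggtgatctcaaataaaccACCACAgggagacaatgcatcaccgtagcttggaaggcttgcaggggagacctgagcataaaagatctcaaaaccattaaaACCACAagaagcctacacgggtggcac
Il1r2 near upstream, chr1:40136404-40136703: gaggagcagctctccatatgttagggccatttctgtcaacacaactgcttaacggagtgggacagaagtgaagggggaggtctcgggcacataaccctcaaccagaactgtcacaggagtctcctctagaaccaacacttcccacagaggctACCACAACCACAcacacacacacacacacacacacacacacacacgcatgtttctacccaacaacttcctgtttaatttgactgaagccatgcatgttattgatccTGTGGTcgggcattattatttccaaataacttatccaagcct
Il1r2 start, chr1:40141312-40141611: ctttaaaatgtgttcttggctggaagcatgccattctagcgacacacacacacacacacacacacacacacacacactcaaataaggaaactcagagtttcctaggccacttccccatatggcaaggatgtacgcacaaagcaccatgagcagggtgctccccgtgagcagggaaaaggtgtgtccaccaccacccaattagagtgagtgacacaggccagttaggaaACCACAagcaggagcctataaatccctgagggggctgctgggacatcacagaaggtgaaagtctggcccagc
Il1rl2 intron 8, chr1:40412781-40413080: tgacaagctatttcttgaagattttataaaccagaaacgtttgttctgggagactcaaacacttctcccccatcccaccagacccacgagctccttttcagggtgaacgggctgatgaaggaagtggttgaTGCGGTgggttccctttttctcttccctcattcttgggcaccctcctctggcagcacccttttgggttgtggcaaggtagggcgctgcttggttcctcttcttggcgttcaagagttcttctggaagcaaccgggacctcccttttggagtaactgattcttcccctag
Il18r1 intron 3, chr1:40530561-40530860: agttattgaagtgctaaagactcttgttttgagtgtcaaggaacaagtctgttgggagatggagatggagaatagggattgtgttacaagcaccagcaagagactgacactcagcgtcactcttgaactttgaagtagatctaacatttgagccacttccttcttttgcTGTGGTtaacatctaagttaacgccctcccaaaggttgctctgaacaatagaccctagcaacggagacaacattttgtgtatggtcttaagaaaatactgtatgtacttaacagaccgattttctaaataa
Il18r1 intron 4, chr1:40532576-40532875: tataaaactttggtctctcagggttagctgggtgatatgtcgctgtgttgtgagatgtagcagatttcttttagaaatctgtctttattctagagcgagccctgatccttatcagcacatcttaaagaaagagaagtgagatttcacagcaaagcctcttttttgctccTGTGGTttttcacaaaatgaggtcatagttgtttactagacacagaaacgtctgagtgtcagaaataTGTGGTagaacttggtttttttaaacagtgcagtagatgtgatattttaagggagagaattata
Il1rap intron 4, chr16:26689874-26690173: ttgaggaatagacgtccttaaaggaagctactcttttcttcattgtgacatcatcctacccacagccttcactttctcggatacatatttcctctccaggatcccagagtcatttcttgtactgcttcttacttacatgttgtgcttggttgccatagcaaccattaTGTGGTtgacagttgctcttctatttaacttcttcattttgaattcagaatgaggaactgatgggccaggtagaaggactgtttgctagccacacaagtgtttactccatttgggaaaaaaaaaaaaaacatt
The near upstream sequence of Il1r2 carried ACCACA in tandem, 4 and 10 bp from the peak centre, and a further TGTGGT core. The ACCACA copy at 10 bp ran without a break into a CA repeat, so its last bases are part of that repeat. Both the near upstream peak and the peak over the Il1r2 start held an uninterrupted CA repeat of 36 bases. CA repeats of 20 bases or more, looked for after these sequences had been seen, occurred in 2 of the 20 peaks and in 2.8% of all peaks. The far upstream peak of Il1r2 and the intron 4 peak of Il18r1 each carried 2 TGTGGT cores, whereas the Il18r1 intron 3 and Il1rap intron 4 peaks each carried 1, at 21 and 19 bp from the centre. The Il1rl2 peak had no TGTGGT, and its single TGCGGT core lay 17 bp from the centre.

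On chromosome 1, Il1r2, Il1r1, Il1rl2, Il1rl1, Il18r1 and Il18rap follow each other in 1 orientation over 467 kb. Of the 20 peaks, 11 lay within this span and 6 in the 50 kb before it, upstream of Il1r2. With 50 kb added on each side, the stretch held 17 peaks, or 30 per Mb, compared with 5.91 per Mb over the genome. The genome value includes stretches far from genes, and the median over windows of all protein-coding genes was 0.88 per 100 kb. The 17 peaks were not spread evenly. They formed a group upstream of and at the start of Il1r2, a looser set from Il1r1 intron 1 to Il1rl2 intron 8, and a close group in Il18r1 with 1 peak in Il18rap. The longest gaps between neighbouring centres were 152872 bp, from the first intron of Il1r2 to that of Il1r1, and 117780 bp, from Il1rl2 intron 8 to Il18r1 intron 3. The second of these gaps contains the whole of Il1rl1. Beyond the cluster, the next peak centres lay 69622 bp before the first and 164438 bp after the last. Because windows of neighbouring genes overlap, 12 of the 20 peaks belonged to 1 gene, 5 to 2 genes and 3 to 3 genes, so the counts per gene are not independent.

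**Figure D1:**
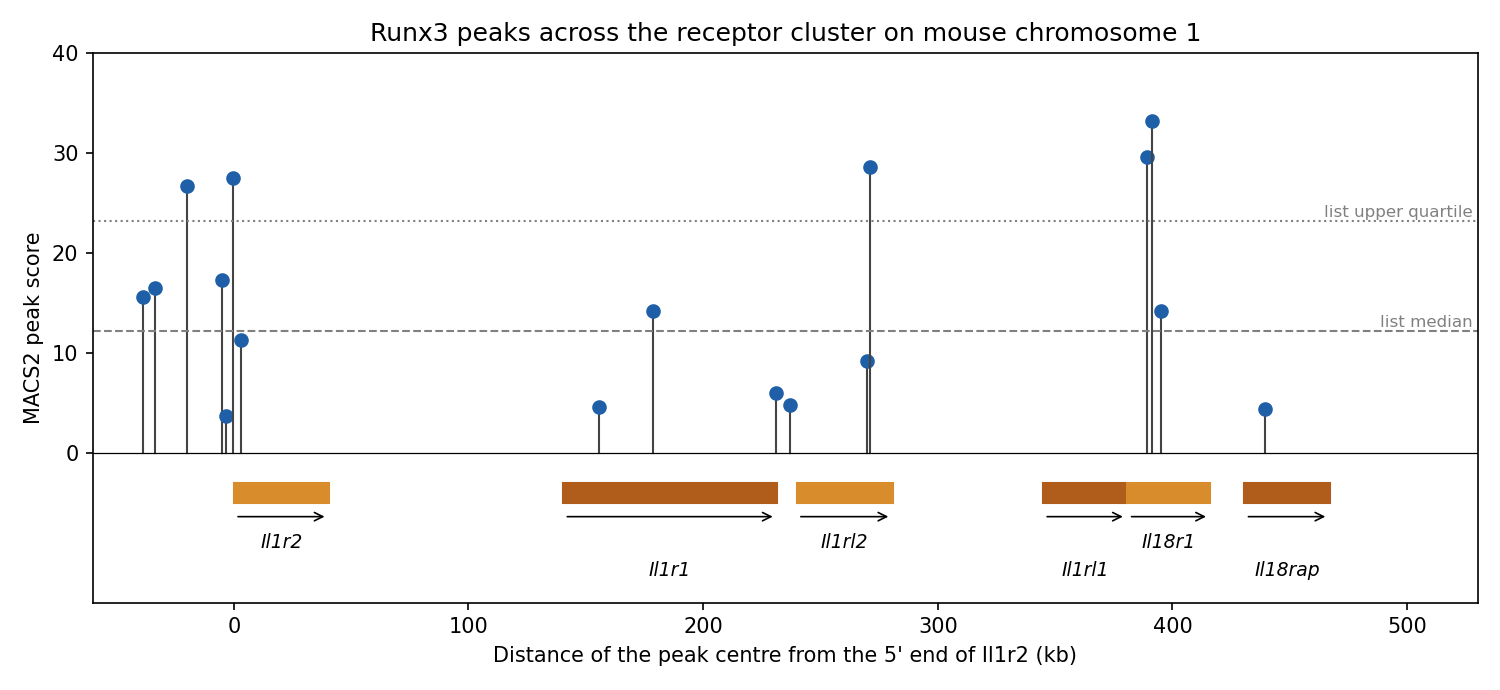
Each stem is a Runx3 peak on chromosome 1, at the distance of its centre from the 5′ end of Il1r2 (kb, x axis) and with its MACS2 score as height (y axis); boxes are gene bodies, arrows the direction of transcription, the dashed line the list median of 12.1 and the dotted line its upper quartile of 23.2. Peaks over 23.2 stand upstream of and at the start of Il1r2, in Il1rl2 and in Il18r1, and none lies within Il1rl1.

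Il1r2, the decoy receptor (ENSMUSG00000026073.7, chr1:40141613-40182064), had 7 peaks under the 50 kb rule, where the other genes had 1 to 6. With gene bodies alone it had 1, against 3 each for Il1r1 and Il18r1. At 10 kb, Il1r2, Il1r1 and Il1rl2 had 4 each. Under the 50 kb rule, 7 or more peaks were found at 4.44% of protein-coding genes. Of these, 6 lay upstream of the gene and 1 inside it. From distal to proximal, the peak 38875 bp upstream scored 15.54 and that 33478 bp upstream scored 16.53. The peak 20048 bp upstream (chr1:40121270-40121860) scored 26.73. The peaks 5059 and 3483 bp upstream lay only 1576 bp apart but scored 17.32 and 3.68, the latter the lowest of all 20 and without a RUNX core. The highest Il1r2 peak (chr1:40141208-40141717) scored 27.51 and covered the annotated 5′ end, its centre 151 bp upstream. The last, in intron 1 of 9 exons, scored 11.24 and had no RUNX core but 2 copies of AGGAAGT, a sequence bound by PU.1 and other ETS factors.

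A noncoding gene, Gm16894, runs on the opposite strand across the Il1r2 start (chr1:40133073-40142698) and overlaps Il1r2 by 1086 bp. The peaks 5059, 3483 and 151 bp upstream of Il1r2 lay within it, and the intron 1 peak was nearer to its start, at 1810 bp, than to that of Il1r2, at 2895 bp. Binding near these starts cannot be assigned to either gene from positions alone. The start of Il1r2 also depended on the annotation. In RefSeq it lies 1325 bp further downstream than in GENCODE, at a distance of 1476 bp from the nearest peak centre, so by RefSeq no peak was within 1 kb of it.

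Il1r1, the signalling receptor for IL-1 (chr1:40281925-40373043), had 6 peaks in its window, a number reached by 7.31% of protein-coding genes, and 3 of them inside the gene. Those in intron 1 of 11 exons scored 4.61, at 15455 bp from the 5′ end, and 14.2, at 38245 bp. The latter lay 3261 bp upstream of a second annotated Il1r1 start. Both carried TGCGGT and no TGTGGT. The peak in the untranslated part of exon 11 (chr1:40372315-40372656) scored 5.96 and was as close as 8987 bp to the start of the next gene, Il1rl2. No peak lay within 1 kb of an Il1r1 start, and the other 3 peaks of its window lay just upstream of or within Il1rl2.

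Il1rl2, the IL-36 receptor (chr1:40381472-40422316), had 4 peaks in its window, a number reached by 18.8% of protein-coding genes, and 2 of them inside the gene. The peak 2636 bp upstream scored 4.79 and had no RUNX core. In intron 8 of 11 exons, peaks 1306 bp apart scored 9.16 and 28.55. The higher (chr1:40412725-40413137, 31459 bp from the 5′ end) scored at or above 81.4% of the list, ties included. Besides its TGCGGT core it held 2 AGGAAGT and 1 GGAANNGAA, the composite sequence of ETS and IRF factors. Its lower neighbour had TGTGGT 6 bp from the centre, so the higher score was not at the peak with the TGTGGT core.

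Il1rl1, which encodes the IL-33 receptor ST2 (chr1:40486415-40522260), had no peak in its body and none upstream within 50 kb. Its 3 peaks lay past its end, by 8451, 10466 and 14525 bp, and all were within Il18r1. The nearest was 33238 bp from any Il1rl1 start. Its count of 3, reached by 29.7% of protein-coding genes, therefore rests on the neighbouring gene.

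Il18r1, the ligand-binding chain of the IL-18 receptor (chr1:40522397-40557699), starts directly after Il1rl1 and held 3 peaks in its introns. That in intron 3 of 8 exons (chr1:40530525-40530897) scored 29.56 and that in intron 4 (chr1:40532502-40532951) 33.24. The latter was the highest score at any of the 8 genes, and 85.4% of the list, ties included, scored at or below it. These peaks were 2015 bp apart and lay 8314 and 10329 bp from the 5′ end. The peak in intron 5 scored 14.2 and was the widest of the 20 at 896 bp, with its single TGTGGT 316 bp from the centre. Il18rap, the signalling partner chain (chr1:40572207-40608550), had a single peak inside the gene, in coding exon 4 of 13 (chr1:40581002-40581324). That peak scored 4.34 and held 2 TGTGGT cores and 1 TGCGGT. The counts of 4 for each gene include shared peaks, and neither gene had a peak within 1 kb of a start.

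Il1rap, the accessory chain (chr16:26581790-26730203), is the longest of the 8 genes and had 2 peaks, a number that 44.3% of protein-coding genes reached. The peak 5841 bp upstream scored 10.53 and carried none of the searched sequences. The peak in intron 4 of 11 exons (chr16:26689784-26690265) scored 22.67, just under the upper quartile of the list. It lay 108234 bp from the 5′ end and 32496 bp upstream of an alternative Il1rap start. Il1rn (chr2:24192373-24207014) had 1 peak, which scored 8.96 and lay 34949 bp past the end of the gene (chr2:24241671-24242255). It was in intron 2 of Psd4, 126 bp from a Psd4 start, and thus nearer to another gene than to Il1rn.

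**Figure D2:**
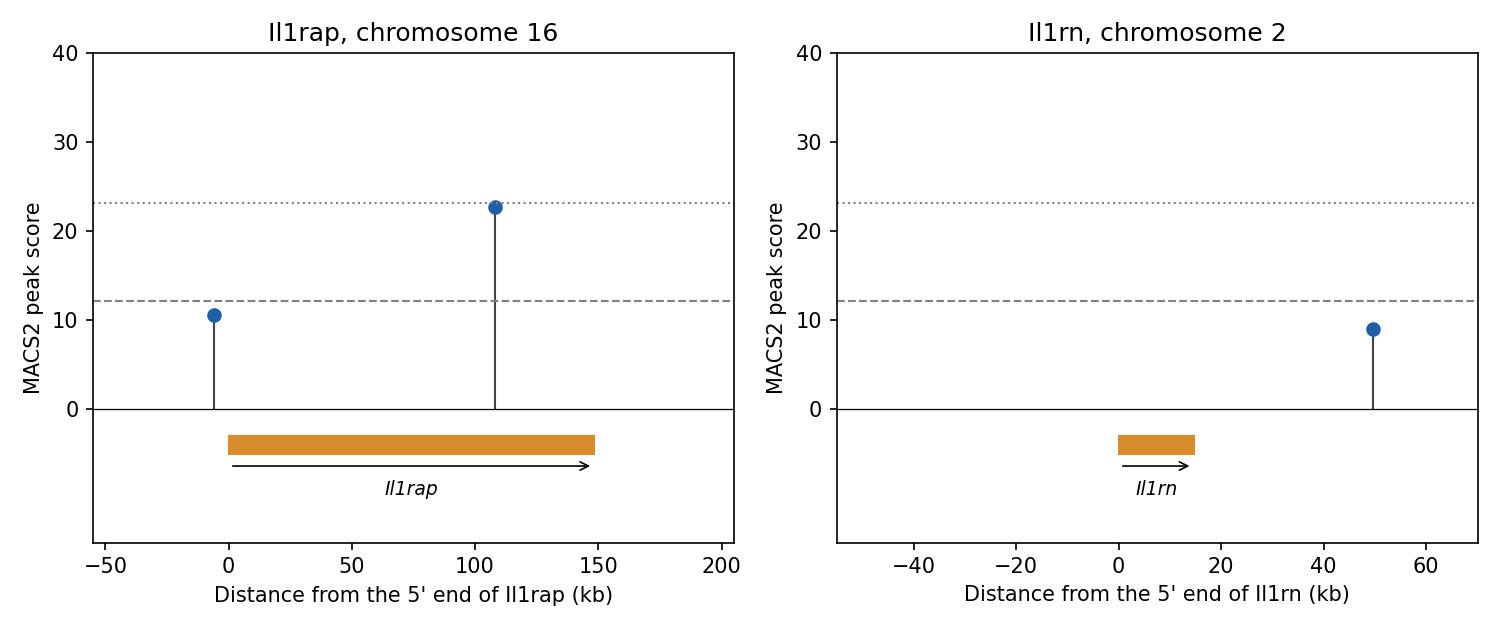
Peaks in the windows of Il1rap (left) and Il1rn (right), drawn as stems at their distance from the 5′ end of the gene (kb, x axis) with the MACS2 score as height (y axis); boxes are gene bodies, the dashed line is the list median of 12.1 and the dotted line the upper quartile of 23.2. The Il1rap peaks score 10.53 and 22.67, and the single Il1rn peak scores 8.96 and lies outside the gene.

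Longer genes have longer windows, and the 8 genes had a median length of 38398 bp against 15427 bp for all protein-coding genes. Per 100 kb of window, Il1r2 had 4.98 peaks, Il1r1 3.14, Il18r1 2.96, Il18rap 2.93, Il1rl2 2.84 and Il1rl1 2.21. Il1rn with 0.872 and Il1rap with 0.805 were near the median of 0.88 over all protein-coding genes. The density was thus above that median at the 6 genes of the chromosome 1 cluster. At the limit of 50 kb, the most distant peaks counted were 41496 bp from Il18rap (score 29.56) and 39888 bp from Il1r1 (28.55). The nearest peaks outside the window of a gene were 58903 bp from Il1rl1 (4.34) and 61302 bp from Il1rl2 (14.2). Both were counted for other genes of the cluster. Among peaks counted for none of the 8 genes, the nearest was 108497 bp from Il1r2 (17.32). For Il1rap the first peak outside, 232729 bp away, scored 76.25.

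**Figure D3:**
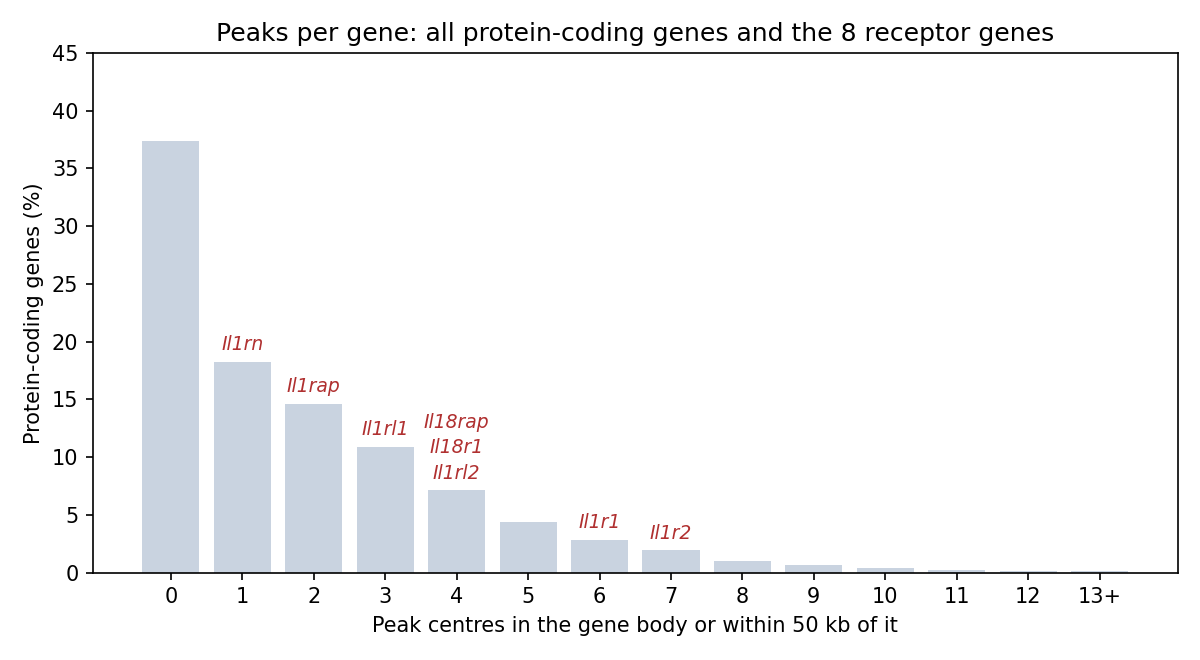
Bars give the percentage of the 22367 protein-coding genes (y axis) by the number of peak centres in the gene body or within 50 kb (x axis), and gene names mark where the 8 receptor genes fall. Il1r2 with 7 and Il1r1 with 6 are in the right tail, Il1rap with 2 and Il1rn with 1 near the middle.

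By position, 10 of the 20 peaks were in introns and 2 in exons of protein-coding genes. Of the 8 outside protein-coding genes, 3 lay in the noncoding Gm16894 and 5 outside every annotated gene. Gene bodies of 6 of the 8 genes held a peak, against 23.2% of all protein-coding genes, whose median length is shorter. A peak within 1 kb of an annotated start was found at 1 of the 8, Il1r2, against 24.9% of all protein-coding genes. Over all annotated genes, 2 of the 20 peaks were within 1 kb of a start, those at Il1r2 and Psd4, against 38% of all peaks. The median distance from a peak to the nearest start was 8929 bp, against 3703 bp over the list. For 18 of the 20 that start belonged to 1 of the 8 genes, which selecting peaks by distance to these genes favours. The exceptions were the Il1r2 intron 1 peak, nearest to Gm16894, and the peak nearest to Psd4.

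Scores of the 20 peaks ran from 3.68 to 33.24 with a median of 14.2 (95% interval of the median 8.96 to 22.67), and the list median of 12.1 fell inside this interval. In all, 11 peaks reached the list median, and 5 reached the upper quartile, against 25.4% of the list. None reached the 95th percentile of the list, 58.02. Peak width was similar, with a median of 393 bp against 406 bp. The peaks had a median GC content of 45.8%, ranging from 36.3% to 56.1%, against 50.7% for the list, and a median of 5 CpG against 8.

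**Figure D4:**
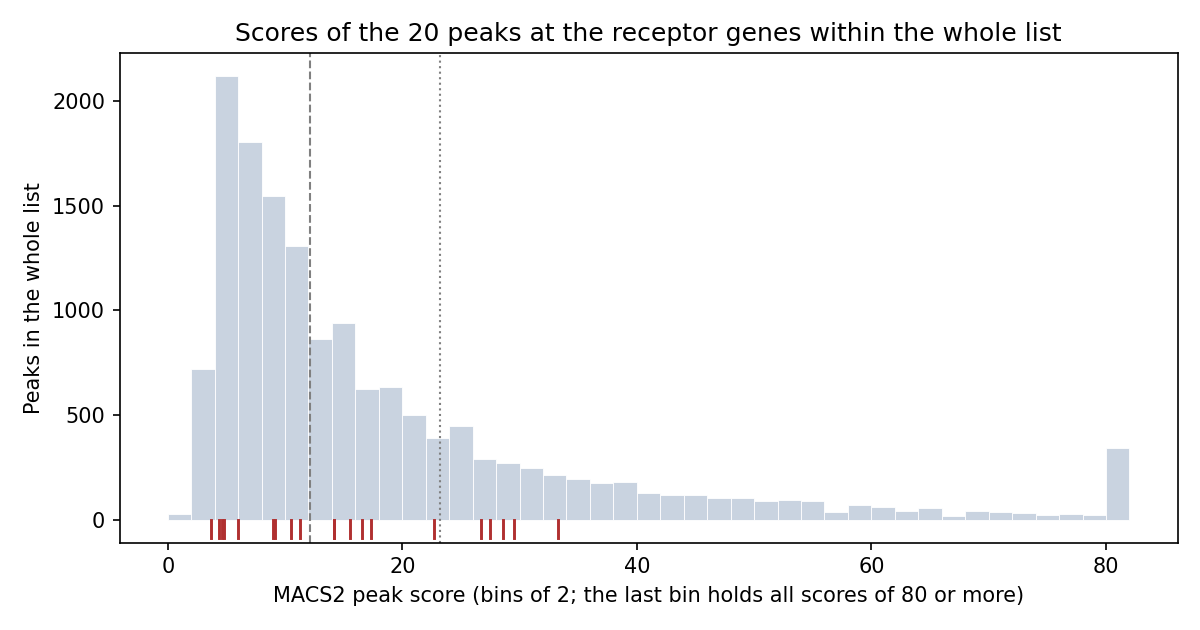
Grey bars count all 15121 peaks of the list by MACS2 score (x axis, bins of 2, the last bin holding all scores of 80 or more), and red ticks mark the 20 peaks at the receptor genes; the dashed line is the list median of 12.1 and the dotted line the upper quartile of 23.2. The ticks run from 3.68 to 33.24, and 5 lie to the right of the dotted line.

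TGTGGT or its reverse complement occurred in 13 of the 20 peaks, 65% (Wilson 95% interval 43.3% to 81.9%, covering counting error only), against 54% of all peaks. Windows of equal width 10 kb downstream held it in 6 of 20 cases, 30%, and in 30.9% for the whole list. Within 100 bp of the centre it occurred in 10 peaks, 50% (29.9% to 70.1%), against 41.8%, and the nearest copy lay at a median of 44 bp, against 45 bp. TGCGGT was present in 5 peaks, against 20.1%, and either core in 16, 80% (58.4% to 91.9%), against 66.5%. The share of peaks with a RUNX core at these genes could not be told apart from that of the list, as each interval included the list value. The median score was 16.53 where TGTGGT was present and 10.53 where it was not, while the list gave 14.2 and 10.53.

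**Figure D5:**
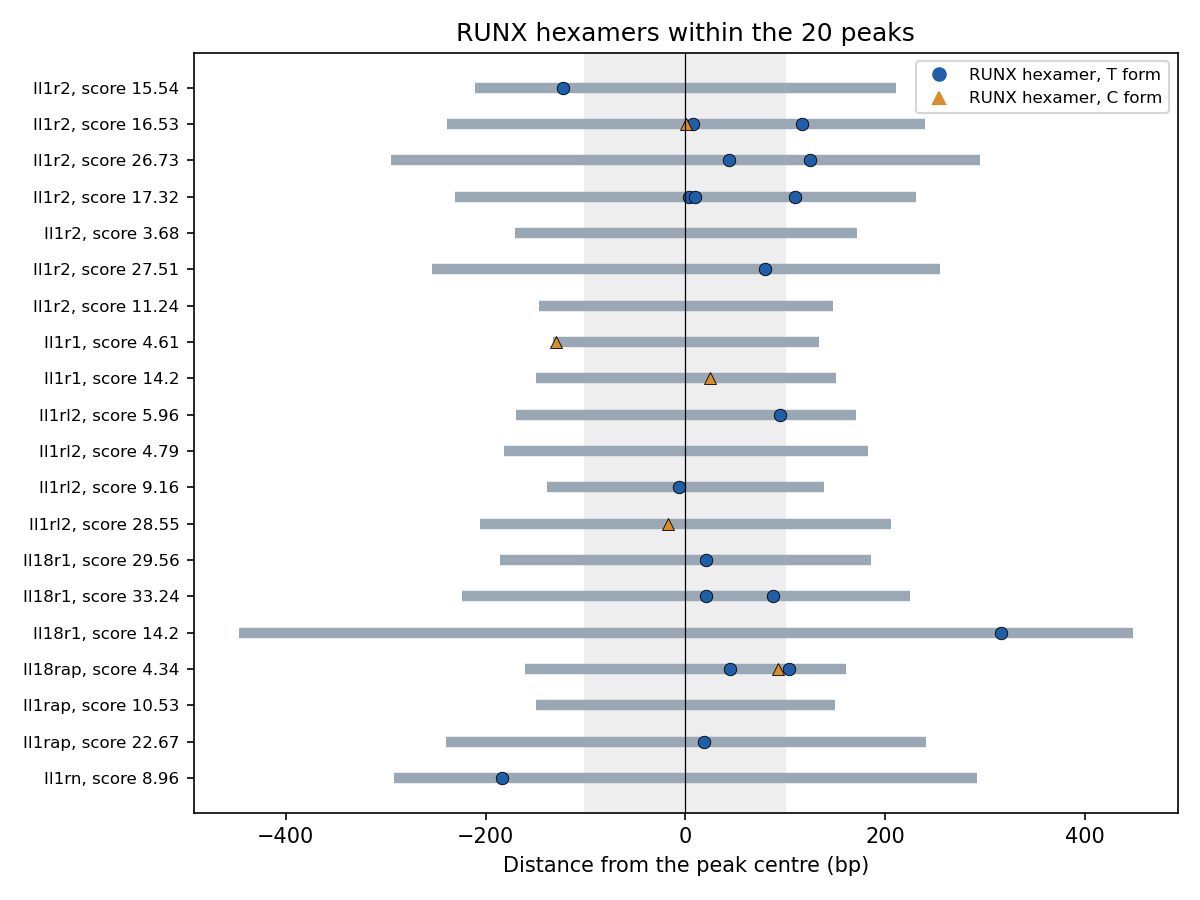
Each bar is 1 of the 20 peaks, drawn to its width around its centre (x axis, bp) and named by the receptor gene with the nearest start and by its score; circles mark TGTGGT (T form), triangles TGCGGT (C form), and the grey band 100 bp on either side. In 10 peaks a circle falls inside the band, and 4 peaks carry neither form.

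Among sequences of other factors, AGGAAGT was present in 9 of the 20 peaks, 45% (25.8% to 65.8%), against 29.4%. GGAANNGAA occurred in 5, against 16.7%. TGANTCA, a pattern with any base at N that is wider than the AP-1 site, occurred in 3, against 13.2%. TGACGT was found in 0 of 20 peaks, which allows a share of up to 16.1% by the Wilson interval, against 11% of all peaks. All searches covered both strands, and these sequences can overlap. In RefSeq promoter windows of 300 bases around the start, TGTGGT occurred in 2 of the 8 genes, Il1rl2 and Il18rap, against 16.8% of 32851 promoters.

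Other genes of the pathway were read as a list of 26, of which 20 had a peak within 50 kb and 8 had one in the gene body. These shares of 76.9% and 30.8% compare with 62.6% and 23.2% of all protein-coding genes. Adaptors and kinases downstream of the receptors had a peak at 10 of 10 genes and within 1 kb of a start at 6, against 62.6% and 24.9% of all protein-coding genes. The highest score among them was 109.45, in the body of Irak3, which encodes an inhibitory member of the IRAK family. It also had 6.57 at 176 bp from its start. Irak2, another IRAK, had 46.98 at 54 bp from its start. Traf6 and Tollip had lower peaks close to their starts, 9.16 and 5.36, both at 5 bp. Myd88 scored 5.96 at 345 bp and Map3k7, the kinase TAK1, 8.49 at 414 bp. Outside the gene body but within 50 kb, Traf6 and Myd88 had higher peaks, scoring up to 60.72 and 50.44. Of 3 genes of cytokine processing, Nlrp3 had 38.27 at 1 bp and Casp1 13.72 at 73 bp from a start.

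Of the 9 ligand genes, 6 had a peak within 50 kb, near the 62.6% of all protein-coding genes. None had one in the body or within 1 kb of a start, against 23.2% and 24.9%. Il1f6, Il1f8 and Il1f9 had 1 peak each, all with the same score of 5.96. Windows of neighbouring genes can share a peak, and shared peaks were not separated in these lists, so the 6 genes need not rest on separate peaks. Il1b had 5 peaks with a highest score of 18.01, Il18 4 with 39.11 and Il1a 3 with 19.78, whereas Il33, Il1f5 and Il1f10 had none. Of 4 other receptors and decoys, only Sigirr, an inhibitory receptor of the family, had peaks, with 11.24 in its body. Il1rapl1, Il1rapl2 and Il18bp, the IL-18 binding protein, had none. The Toll-like receptors, which share the TIR domain and MyD88, had a peak at 11 of 12 genes, in the body at 4 and within 1 kb of a start at 4. The all-gene shares are 62.6%, 23.2% and 24.9%, and the 33.3% of Toll-like receptors with a peak in the body or near a start is not far from them. Their 28 peaks had a median score of 9.17, and 64.3% held TGTGGT.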

How the data were processed

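Chromatin of splenic CD4+ DC was sequenced for 2 Runx3 immunoprecipitates and 2 input controls. The submitters' processing notes name CASAVA 1.8, Bowtie, MACS2 and mm9. Further versions and the threshold are not given in the sources used here. The deposited values are 1 MACS2 score per peak, in a unit the authors did not state, from a single call on pooled samples. Depth per sample was not analysed here.

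Peaks were placed by their centre, counted from 1, against GENCODE M1 on NCBIM37, the same assembly as mm9. The longest coding transcript by genomic span numbered introns and exons. Motifs were searched on both strands. The promoter table of RefSeq (GRCm38.p6) matched all 8 genes, and each promoter sequence occurred once on its mm9 chromosome. Intervals on shares are Wilson 95% intervals, and that on the median score comes from order statistics. Counting functions were tested on simulated data. No statistical test was made, as planned, since the pooled list has no value per replicate.

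The 8 genes, the gene lists and the motifs were chosen with earlier results of these data known. Named were the 8 genes with every peak, genes with the nearest start to one, and pathway genes with a peak in the body or within 1 kb of a start. Genes named beyond this rule (ligands, pathway genes with no peak, Cd3e and Cd3g) were chosen after their values were seen. Alternatives covered the distance limit, minimum scores (list median, upper quartile), any overlapping base, joining peaks under 300 bp apart, the nearest start and the motif definition. Python 3.11.15, pandas 2.3.3, scipy 1.17.1, pysam 0.24.0 and samtools 1.23.1 were used.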

Additional observations from a re-analysis of the deposited data

How the results depend on the processing

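The number of receptor genes with a peak stayed between 6 and 8 of 8 under all alternatives run, but neighbouring genes share peaks. At the upper quartile of scores, the 6 genes rested on 5 peaks. These lay upstream of or at the start of Il1r2, in Il1rl2 and in Il18r1. With gene bodies alone, 11 peaks remained at the 8 genes, 8 genes of the pathway list and 4 Toll-like receptors had a peak, and 23.2% of protein-coding genes did. A limit of 10 kb gave 13 pathway genes and 43.4% of protein-coding genes, and 100 kb gave 72.1%. Scores at or above the list median left 11 peaks, 13 pathway genes, 6 Toll-like receptors and 47.3% of protein-coding genes. Scores at or above the upper quartile left 5 peaks with a median of 28.55, 6 pathway genes, 4 Toll-like receptors and 31% of protein-coding genes. Assignment to the nearest start gave 10 pathway genes and 33.4% over any gene, and 13 and 36.5% over protein-coding genes. Control windows gave 30% with TGTGGT. Apart from the control windows, these alternatives remove or add peaks or windows by construction. Counts per gene moved further. For Il1r2 the count fell from 7 to 1 with gene bodies alone, 4 at 10 kb and 2 at the upper quartile of scores, and for Il1r1 from 6 to 3, 4 and 1. Nearest-start assignment gave Il1r1 2 peaks and Il1rl1 0. No paired analysis was possible because the pooled list has no value per replicate, and for the same reason no replicate could be left out. Weak peaks depend most on sequencing depth, and 9 of the 20 scored below the list median.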
